A study of Mus musculus with 12 samples.

Results

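The effect of swimming on gene expression in the mouse colorectum was compared between mice with colitis-associated cancer and mice without it. The quantity of interest was an interaction, which is the log2 fold change with swimming in AOM/DSS mice (Model_Swim minus Model) minus the log2 fold change with swimming in untreated mice (Ctrl_Swim minus Ctrl). It was estimated for each gene in a single fit of all 12 mice of the series, 3 in each of the 4 groups. Of 18514 genes in the count table, 15484 passed the filter on low counts and were tested. A positive value marks a gene that swimming moved further up, or less far down, in AOM/DSS mice than in untreated mice.

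All mice were male C57BL/6, obtained at 4 weeks of age. Model and Model_Swim mice received an injection of 10 mg/kg azoxymethane (AOM), a carcinogen that alkylates DNA, followed by 3 cycles of drinking water with 2% dextran sulfate sodium (DSS), which injures the colonic epithelium and inflames it. Neither AOM nor DSS was given to Ctrl and Ctrl_Swim mice, which drank plain water. Ctrl_Swim and Model_Swim mice swam daily, building up to 90 min per day, from before the AOM injection to the end, and the other mice stood in shallow water instead. The RNA came from pieces of whole colorectal tissue, so that fewer cells of a type and less RNA per cell cannot be told apart, and the labels do not say how much tumour each piece held. Replicate numbers name the mice, and nothing in the labels says that mice of the same number were housed or handled together.

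Libraries held between 17256953 and 19451055 counts. Levels are given as CPM, the counts scaled to library size. A count of 0 allows up to 3 counts, which is at most 0.174 CPM in these libraries and covers counting error only. Model 1 and Model 3 carried pancreatic RNA, with 56823 and 27632 CPM summed over the pancreatic acinar list against 212 to 731 CPM in the other 10 libraries. At trace level, the acinar genes also divided the libraries. Their median stood above 0.02% of the mean of Model 1 and Model 3 in Ctrl 1, Ctrl 2, Ctrl 3, Ctrl_Swim 3 and Model 2, and below it in Ctrl_Swim 2, Ctrl_Swim 4 and all 3 Model_Swim mice. Among AOM/DSS mice this division and swimming therefore cannot be told apart, and among untreated mice it differs from the groups by Ctrl_Swim 3 only. A model term for the division, used below, is estimated from the Ctrl_Swim mice alone, the only group on both sides. With that term, Ctrl_Swim 3 is the only swimmer behind the untreated effect. Genes of squamous epithelium and of skeletal muscle, tissues that border the anus, also varied between mice of 1 group, and their values are given below where they moved with a result.

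The colonic lining is renewed from crypt stem cells, which give rise to absorptive colonocytes and to secretory cells, chiefly the goblet cells that make mucus. Goblet cells fold and export very large amounts of glycoprotein and depend on the endoplasmic reticulum (ER), colonocytes depend on mitochondrial respiration, and lymphoid follicles of B and T cells lie within and below the lining. Colitis and colitis-associated tumours are known to deplete goblet cells and mature colonocytes and to enlarge lymphoid tissue. These compartments were described by lists of marker genes, together with lists for other cell types and pathways, 31 lists in all.

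No gene passed both cutoffs for the interaction, which asked for more than a 2-fold change in either direction and for an adjusted p under 0.05 (0 of 15484, or 0%), and none passed the adjusted p alone (0%) in edgeR's quasi-likelihood test. The lowest adjusted p was 0.0547, shared by 4 genes, and 37 genes (0.239%) lay under 0.10, of which 19 were positive and 18 negative. At an unadjusted p under 0.05 there were 2947 genes, or 19% of those tested, with 1484 positive (9.58%) and 1463 negative (9.45%). DESeq2, run on the same counts, passed 209 genes at both cutoffs, 48 positive and 161 negative, and 750 at the adjusted p alone, and voom with sample weights passed 120 and 553. The count thus depended on the tool. Which of these counts is the more accurate for these mice was not tested.

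The count also depended on single mice. Without Model 3, one of the 2 libraries with pancreatic RNA, 716 genes had an adjusted p under 0.05 and 248 also passed the fold change cutoff. The corresponding counts were 195 and 62 without Ctrl_Swim 2, 70 and 20 without Model 1, and 49 and 38 without Model 2. With Model 1 and Model 3 both left out, so that Model 2 stood alone and was assumed to vary like the others, 917 and 249 genes passed. Model 3 also stood apart in genes of colon position, and with the distal position genes as a covariate 103 genes passed the adjusted p and 53 both cutoffs. Its mean log2 CPM was 2.47 for distal genes, against 3.42 to 4.07 in the other 11 mice, and 3.598 for proximal genes, against 2.07 and 2.46 in Model 1 and Model 2 and 3.12 to 3.46 in the other 9. Leaving out any of the other 8 mice gave 0 genes at either cutoff, with 2074 to 2590 genes at an unadjusted p under 0.05.

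**Figure D1:**
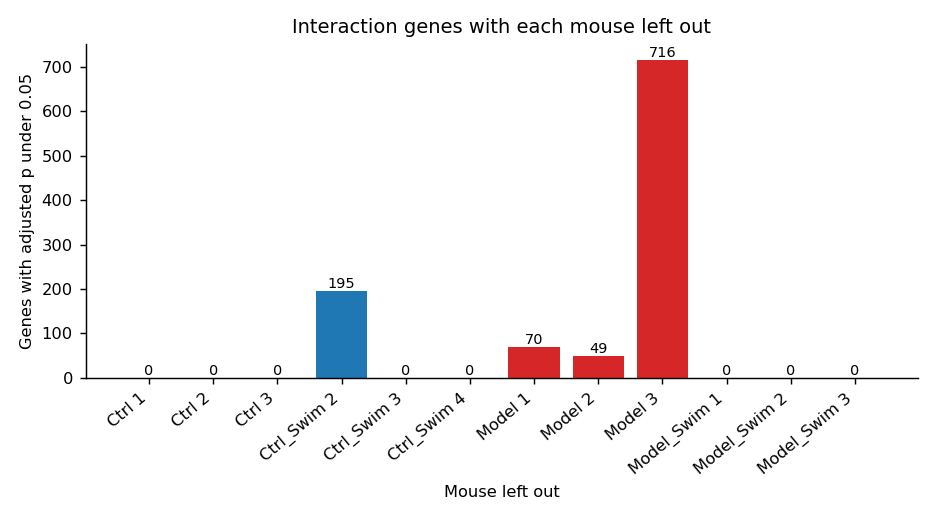
Number of genes with an adjusted p under 0.05 for the interaction (vertical axis, edgeR) when the mouse on the horizontal axis was left out of the fit, coloured by group. The bar for Model 3 reaches 716 genes, those for Ctrl_Swim 2, Model 1 and Model 2 reach 195, 70 and 49, and the other 8 are at 0.

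Swimming effects of opposite sign were common. The sign differed between AOM/DSS and untreated mice in 55.5% of the genes tested, with 26.8% up in AOM/DSS mice and down in untreated mice and 28.7% the reverse. Among genes with an unadjusted interaction p under 0.05, the signs differed in 1296 of 1484 positive and 1381 of 1463 negative genes, which the definition of the contrast makes likely. The same genes, of either sign pattern, can be counted by the arm in which swimming had an unadjusted p under 0.05. Of the 1484 positive genes, 666 had such a p in untreated mice but not in AOM/DSS mice, 458 the reverse, 117 in both and 243 in neither, and a p over 0.05 does not show that swimming had no effect. Of the 1463 negative genes the corresponding numbers were 552, 418, 186 and 307. Genes with an unadjusted p under 0.05 in both arms and opposite signs numbered 104 with swimmers higher under AOM/DSS (0.672%) and 184 with swimmers lower there (1.19%). Their sum of 288 was 6 with a term for the library division, 83 with a replicate block, 136 without Ctrl_Swim 4 and 556 without Ctrl_Swim 2. In 200 genes (1.29%) the groups did not overlap in either arm and swimming mice were the higher ones under AOM/DSS, and in 193 genes (1.25%) they were the lower ones.

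Among genes of at least 1 CPM with opposite signs, the 12 with the lowest interaction p in the positive direction were Slc26a1, Aars, Nr1d1, Tars, Sec13, Sec23b, Gpd2, Lrrc59, Tubb4b, Arl1, Tubb2a and Ugt2b35. What some of them encode is given as background, and no theme among the 12 was tested. Aars and Tars are the alanyl- and threonyl-tRNA synthetases, Sec13 and Sec23b are coat proteins of the vesicles that leave the ER, Lrrc59 is an ER membrane protein and Arl1 is a small GTPase of the Golgi. In 8 of the 12 (Aars, Tars, Sec13, Sec23b, Gpd2, Lrrc59, Tubb4b and Arl1) swimming lowered expression in untreated mice, with adjusted p between 0.0175 and 0.0314, while no adjusted p in AOM/DSS mice was under 0.273.

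Aars was at 141, 134 and 138 CPM in Ctrl mice, 103, 104 and 108 in Ctrl_Swim mice, 111, 105 and 113 in Model mice, and 118, 118 and 121 in Model_Swim mice. The groups did not overlap in either arm, with swimmers lower among untreated mice and higher among AOM/DSS mice. The swimming effect was -0.39 ± 0.05 (log2 fold change ± SE) in untreated mice, where Aars fell (adjusted p = 0.0175), and 0.12 ± 0.05 in AOM/DSS mice (adjusted p = 0.345). The interaction was 0.51 ± 0.07 (adjusted p = 0.0675).

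Sec13 had the same arrangement, at 127, 130 and 125 CPM in Ctrl, 105, 99.2 and 90.5 in Ctrl_Swim, 91.1, 87.9 and 96.5 in Model, and 104, 101 and 106 in Model_Swim mice. Again no mouse of a swimming group overlapped the sedentary group of its arm, and the interaction was 0.55 ± 0.09 (adjusted p = 0.0884). Lrrc59 differed, since its levels of 217, 203 and 237 CPM in Model mice and 232, 223 and 228 CPM in Model_Swim mice overlapped. Ctrl mice stood at 332, 294 and 286 CPM and Ctrl_Swim mice at 210, 215 and 202 CPM. For Lrrc59 the interaction of 0.59 ± 0.11 (adjusted p = 0.0894) therefore came with a fall in untreated mice (-0.54 ± 0.07, adjusted p = 0.0175) and a value of 0.05 ± 0.07 in AOM/DSS mice.

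Gpd2, the mitochondrial glycerol-3-phosphate dehydrogenase, was at 137, 113 and 136 CPM in Ctrl and at 89.0, 76.4 and 76.97 CPM in Ctrl_Swim mice. Under AOM/DSS it was at 105, 89.3 and 97.9 CPM in Model and 108, 107 and 99.3 CPM in Model_Swim mice, which overlapped. Its interaction was 0.78 ± 0.13 (adjusted p = 0.0894). Tubb4b, a beta-tubulin, had an interaction of 0.57 ± 0.10, and Tars, Sec23b and Arl1 had values of 0.55, 0.56 and 0.45, each with an adjusted p between 0.0884 and 0.0894.

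The other 4 positive genes differed mainly under AOM/DSS. Slc26a1, a sulfate transporter of epithelial cells located at chr5:108669878-108678380 (GRCm38.p6), was at 0.107, 0.109 and 0.459 CPM in Model mice, from counts of 2, 2 and 8. It was at 6.66, 7.07 and 6.41 CPM in Model_Swim, 8.33, 8.504 and 7.04 in Ctrl, and 12.55, 5.001 and 6.13 in Ctrl_Swim mice. Model mice stood apart from the other 9. Swimming raised it in AOM/DSS mice (4.88 ± 0.50, adjusted p = 0.0025), the effect in untreated mice was -0.01 ± 0.36, and the interaction was 4.89 ± 0.62 (adjusted p = 0.0547). Its opposite sign thus rests on a value of about 0. The call under AOM/DSS is among 11 genes past both cutoffs for swimming there. Their number was 0 with a term for the library division, 1 with the acinar genes as a covariate and 100 with DESeq2. Slc26a1 lies within the span of Idua, whose CPM was between 16.2 and 22.3 in all 12 mice. Whether reads were counted by strand is not given in the sources used here.

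Nr1d1, which encodes the clock repressor REV-ERB alpha, was at 44.2, 57.5 and 76.3 CPM in Model mice and 177, 165 and 170 CPM in Model_Swim mice. Ctrl mice had 130, 135 and 156 CPM and Ctrl_Swim mice 153, 141 and 128 CPM, which overlapped. Its rise with swimming in AOM/DSS mice (1.52 ± 0.16, adjusted p = 0.00294) again stood against a value at 0 in untreated mice (0.00 ± 0.16). That rise is also among the 11 calls under AOM/DSS, of which none was left with the library division term. Tubb2a, another beta-tubulin, and Ugt2b35, a glucuronosyltransferase, belong to families of closely similar genes among which reads may be divided unevenly. Their interactions were 0.56 ± 0.10 and 0.61 ± 0.11.

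In the negative direction the 12 genes were Snapc3, Sh2d3c, Hook3, Pnisr, Rgl2, Rgs11, Mfge8, Ptprb, Paxbp1, Ddx17, Fam193b and Zkscan3. Their opposite signs were fuller than those of the positive genes. In 10 of the 12 (all but Mfge8 and Ptprb) the groups did not overlap in either arm, against the 1.25% of all genes tested. The genes were ranked on these same mice, so that this count describes them and is not a test.

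Sh2d3c, an adaptor protein that acts in cell adhesion and migration, was at 8.83, 8.67 and 8.36 CPM in Ctrl, 11.5, 12.3 and 13.1 in Ctrl_Swim, 13.9, 13.1 and 14.4 in Model, and 9.91, 9.79 and 9.38 in Model_Swim mice. Swimmers were higher than sedentary mice without AOM/DSS and lower with it. The swimming effect was 0.51 ± 0.10 in untreated mice, where the gene rose (adjusted p = 0.0411), and -0.51 ± 0.10 in AOM/DSS mice (adjusted p = 0.0691), and the interaction was -1.02 ± 0.14 (adjusted p = 0.0547).

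Snapc3, a subunit of the complex that activates transcription of small nuclear RNA genes, was at 23.6, 18.97 and 24.4 CPM in Ctrl, 30.3, 34.3 and 35.1 in Ctrl_Swim, 36.7, 41.0 and 38.4 in Model, and 28.6, 28.1 and 27.5 in Model_Swim mice. The order of the groups was the same as for Sh2d3c, with Model mice highest and Ctrl mice lowest. It rose with swimming in untreated mice (0.57 ± 0.10, adjusted p = 0.0307), the value in AOM/DSS mice was -0.46 ± 0.10 (adjusted p = 0.106), and the interaction was -1.04 ± 0.14 (adjusted p = 0.0547).

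Rgl2, an exchange factor for the small GTPase Ral, was at 37.9, 36.4 and 38.8 CPM in Ctrl, 42.6, 45.2 and 50.9 in Ctrl_Swim, 49.0, 49.96 and 46.3 in Model, and 38.6, 39.0 and 38.4 in Model_Swim mice. Here Model_Swim mice overlapped Ctrl mice, and Ctrl_Swim mice overlapped Model mice. The interaction was -0.62 ± 0.10 (adjusted p = 0.0813). Rgs11, a regulator of G protein signalling, had the largest interaction of the 12, -1.73 ± 0.28 (adjusted p = 0.0884), at 2.70, 3.11 and 3.08 CPM in Ctrl and 6.14, 6.01 and 4.70 CPM in Ctrl_Swim mice, and at 7.77, 5.99 and 7.63 CPM in Model and 4.79, 3.15 and 4.24 CPM in Model_Swim mice.

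The remaining 8 negative genes had interactions from -0.92 (Fam193b) to -0.55 (Paxbp1). Hook3 links microtubule motors to their cargo, Pnisr is a protein of nuclear speckles, Ddx17 is an RNA helicase, Zkscan3 is a zinc finger protein and Mfge8 bridges dying cells to phagocytes. Ptprb, a phosphatase of endothelial cells, was an exception in that swimming raised it in untreated mice (0.67 ± 0.09, adjusted p = 0.0175) while its value in AOM/DSS mice was -0.04 ± 0.09. All 24 genes named by rank kept the sign of their interaction in each of the 26 alternative analyses. Of these 24, 7 passed both cutoffs in 1 to 8 of the alternatives (Slc26a1, Nr1d1, Snapc3, Sh2d3c, Rgs11, Fam193b and Mfge8) and the others in none. Those others stayed under a 2-fold interaction in every alternative, so that they could not pass both cutoffs whatever their adjusted p. Reads of overlapping genes may be shared, as Nr1d1 overlaps Thra by 1075 bases, Snapc3 overlaps Psip1 by 17340 bases and Aars overlaps Ddx19b by 3974 bases.

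**Figure D2:**
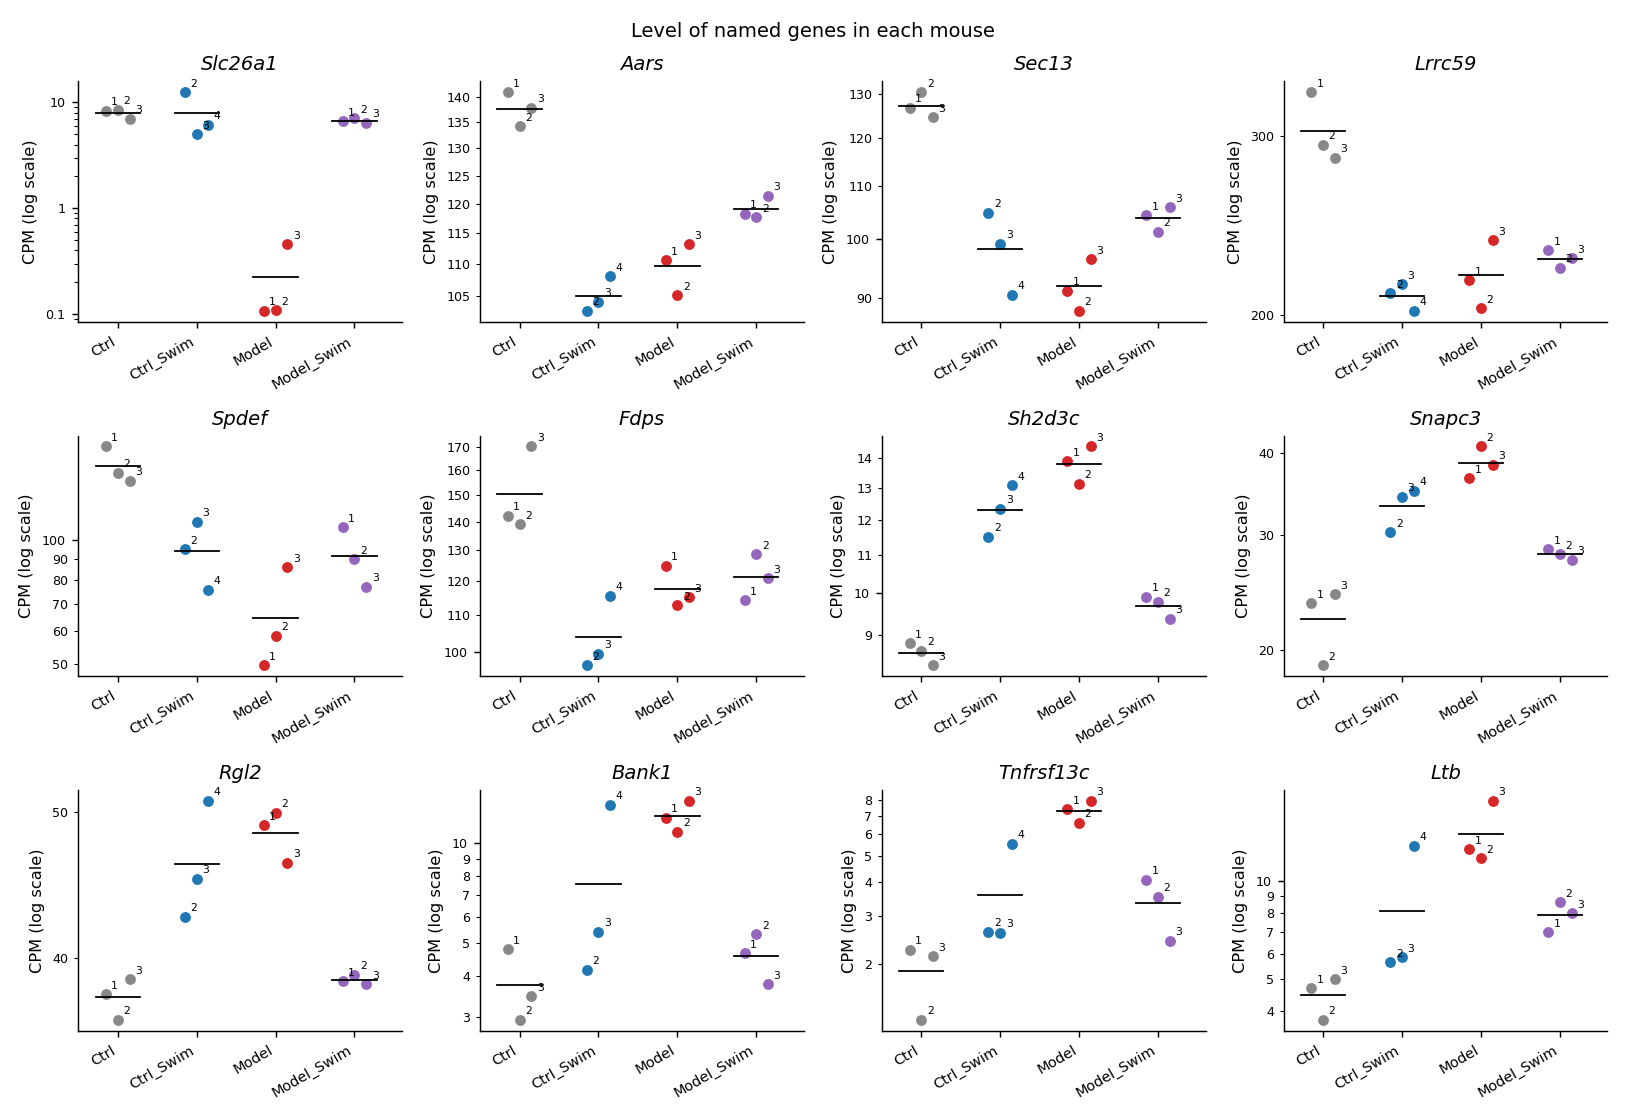
Level of 12 named genes in each mouse (vertical axis, CPM after TMM scaling, log scale) in the groups Ctrl, Ctrl_Swim, Model and Model_Swim. Points are single mice with their replicate number, and bars are group means. Sh2d3c, Snapc3 and Rgl2 were higher in Ctrl_Swim than Ctrl mice and lower in Model_Swim than Model mice without overlap, while the B cell genes Bank1, Tnfrsf13c and Ltb were highest among untreated swimmers in Ctrl_Swim 4.

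Goblet cell genes had a median interaction of 0.72 over the 26 genes tested, against 0.00 over all genes. Of the 26, 23 were positive and 15 of these had an unadjusted p under 0.05 (9.58% of all genes tested), and no negative gene did. None passed an adjusted p of 0.05 for the interaction in edgeR, while 11 did with DESeq2 and 3 with voom, all positive, and 6 positive and 1 negative did in edgeR without Model 3. Over all genes tested, the positive ones numbered 400 of 15484 with DESeq2 and 370 of 15484 with voom. Without Model 3, 524 positive and 192 negative genes of 15681 passed. One of the 27 genes on the list was not tested for low counts. The median swimming effect was -0.64 in untreated mice and 0.03 in AOM/DSS mice, so the median was well below 0 in one arm and near 0 in the other, and 15 of 26 genes (57.7%) had opposite signs against 55.5% of all genes. In untreated mice 18 of 26 were lower with an unadjusted p under 0.05 (9.49% of all genes tested) and 7 passed an adjusted p of 0.05 (0.969%), while in AOM/DSS mice 2 were higher (6.66%) and 1 lower (6.91%) at an unadjusted p under 0.05 and 0 passed (0.071%).

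The mean log2 CPM of the goblet list was 8.42, 8.34 and 8.36 in Ctrl, 7.77, 7.68 and 7.29 in Ctrl_Swim, 7.35, 7.82 and 7.70 in Model, and 7.96, 7.81 and 7.49 in Model_Swim mice. Ctrl mice stood above all 9 others, which overlapped among themselves. Read along the other side of the design, the median effect of AOM/DSS on these genes was -0.57 among sedentary mice and 0.06 among swimming mice. Ctrl_Swim 3, which lies with the Ctrl mice in the trace of pancreatic RNA, had 7.68, below all Ctrl mice. With a term for the library division the median swimming effect was -0.43 in untreated mice and 0.08 in AOM/DSS mice. The first of these rests on Ctrl_Swim 3 alone against the Ctrl mice, and the shift in the second is estimated from the Ctrl_Swim mice. The cause of the lower level in untreated swimmers was not tested.

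Retnlb, a secreted protein active against bacteria, was at 2447, 1896 and 1655 CPM in Ctrl mice and 497, 310 and 256 CPM in Ctrl_Swim mice. Under AOM/DSS it was at 140, 486 and 397 CPM without swimming and 575, 404 and 178 CPM with it. Retnlb fell in untreated swimmers (-2.50 ± 0.50, adjusted p = 0.0465). This call and those of Clca1 and Spink4 below are among 26 genes past both cutoffs for swimming in untreated mice, of which none was left without Ctrl 1, Ctrl 3 or Ctrl_Swim 3 or with the library division term. That term leaves Ctrl_Swim 3 as the only swimmer behind the untreated effect. For Retnlb the AOM/DSS groups overlapped (0.18 ± 0.47), and the interaction was 2.67 ± 0.67 (adjusted p = 0.115).

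Clca1, a metalloprotease of the mucus layer, was at 21683, 15915 and 16103 CPM in Ctrl, 4133, 3358 and 1930.2 in Ctrl_Swim, 3248, 11863 and 5581 in Model, and 9573, 6950.2 and 3220 in Model_Swim mice. In untreated swimmers it fell (-2.51 ± 0.50, adjusted p = 0.0465), and under AOM/DSS the groups overlapped (-0.07 ± 0.47). Spink4, a secreted peptide of goblet cells, also fell in untreated swimmers (-1.21 ± 0.24, adjusted p = 0.0465), with an interaction of 1.52 ± 0.34 (adjusted p = 0.115). Muc2, the gel-forming mucin itself, was at 10899, 8734 and 9228 CPM in Ctrl and 7142, 8277 and 7381 CPM in Ctrl_Swim mice, which did not overlap, though the difference was smaller (-0.34 ± 0.32, adjusted p = 0.608). It was at 3836, 7920 and 12815 CPM in Model and 9216, 6859 and 6659 CPM in Model_Swim mice, which overlapped. Its interaction was 0.23 ± 0.45 (adjusted p = 0.824), and this was 0.70 without Model 3 and turned in sign, to -0.13, without Model 1.

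Of the transcription factors that direct goblet cell development, Foxa3 was at 60.6, 47.7 and 52.8 CPM in Ctrl and 32.6, 37.0 and 33.4 CPM in Ctrl_Swim mice, a fall of -0.64 ± 0.12 (adjusted p = 0.0421). Under AOM/DSS it was at 36.1, 40.04 and 39.1 CPM in Model and 53.4, 40.6 and 39.5 CPM in Model_Swim mice, which overlapped, and its interaction was 0.86 ± 0.17 (adjusted p = 0.114). Spdef was the only goblet gene with an unadjusted p under 0.05 in both arms and opposite signs. It was at 169, 146 and 139 CPM in Ctrl, 94.8, 111 and 75.6 in Ctrl_Swim, 49.5, 58.5 and 85.8 in Model, and 107, 89.7 and 76.9 in Model_Swim mice. Model 3 overlapped the Model_Swim mice, and the interaction was 1.19 ± 0.29 (adjusted p = 0.115).

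**Figure D3:**
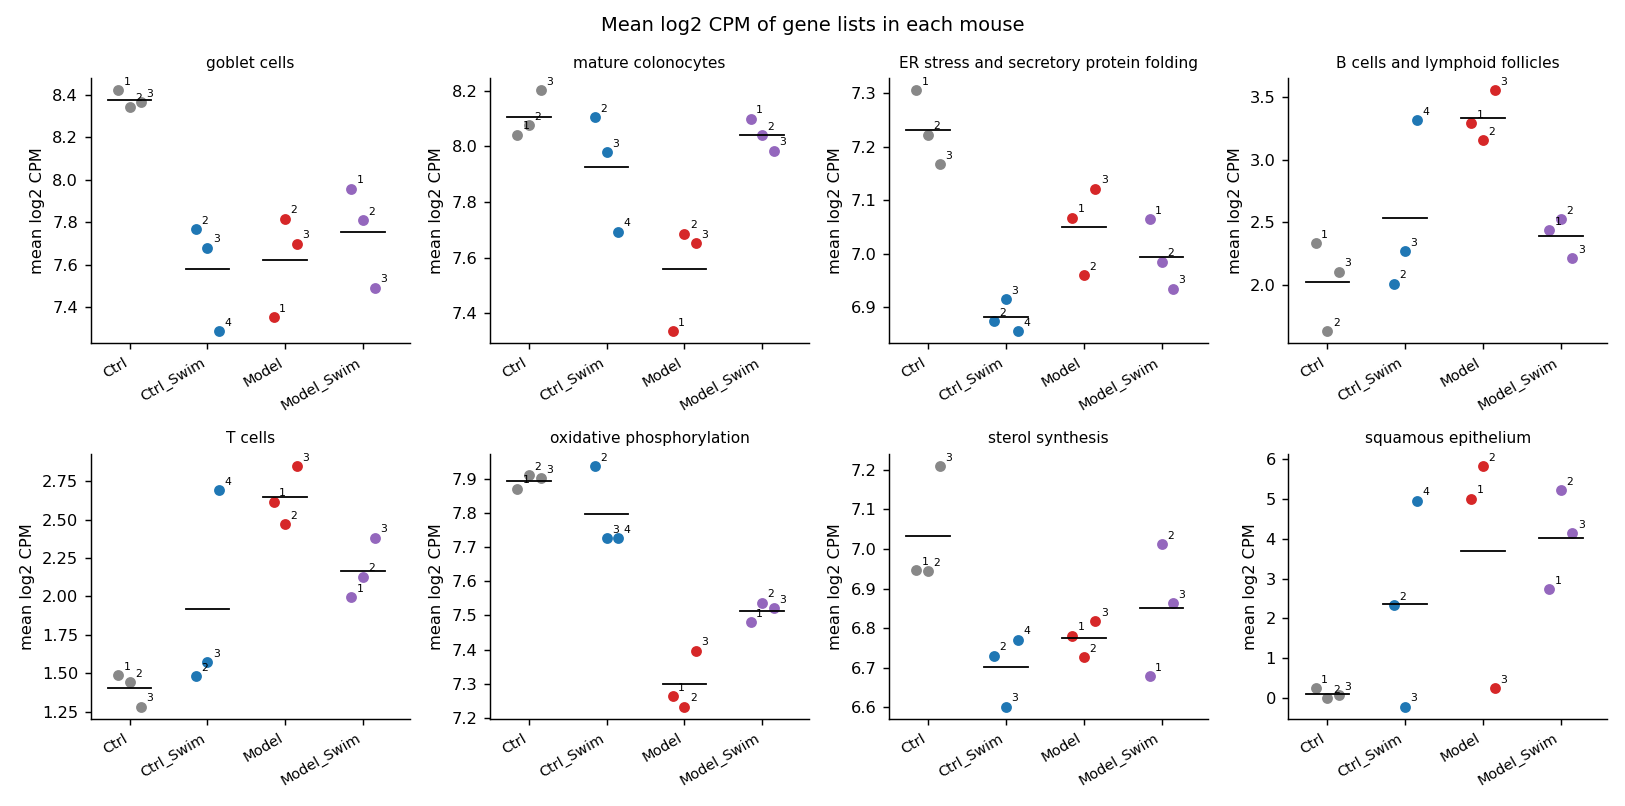
Mean log2 CPM of 8 gene lists in each mouse, by group (points are mice with their replicate number, bars are group means). Goblet cell genes were highest in the 3 Ctrl mice, B and T cell genes were high in all Model mice and in Ctrl_Swim 4, and genes of squamous epithelium varied between mice of the same group, from -0.21 to 4.95 in Ctrl_Swim and from 0.24 to 5.82 in Model.

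The list for ER stress and secretory protein folding holds chaperones and translocation factors that every secretory cell uses. All 28 genes had a positive interaction, with a median of 0.26 and 15 at an unadjusted p under 0.05 (9.58% of all genes tested). The median swimming effect was -0.36 in untreated mice and -0.11 in AOM/DSS mice, and 7 of the 28 had opposite signs, against 55.5% of all genes. In untreated mice 12 of 28 passed an adjusted p of 0.05, all lower in swimmers, against 0.969% of all genes, and under AOM/DSS 0 passed. At an unadjusted p under 0.05, 19 were lower in untreated swimmers (9.49% of all genes tested). Under AOM/DSS 8 were lower (6.91%) and 0 higher (6.66%). The list's mean log2 CPM was 7.31, 7.22 and 7.17 in Ctrl and 6.87, 6.92 and 6.86 in Ctrl_Swim mice, without overlap, and 7.07, 6.96 and 7.12 in Model and 7.06, 6.98 and 6.93 in Model_Swim mice, with overlap.

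Hspa5, the chaperone BiP and the central sensor of unfolded protein in the ER, was at 702, 635 and 637 CPM in Ctrl and 451, 495 and 430 CPM in Ctrl_Swim mice. It was at 553, 483 and 548 CPM in Model and 586, 534 and 474 CPM in Model_Swim mice. It fell in untreated swimmers (-0.52 ± 0.09, adjusted p = 0.0372), did not separate the AOM/DSS groups (0.01 ± 0.09), and had an interaction of 0.53 ± 0.13 (adjusted p = 0.115). Sec61a1, the channel through which proteins enter the ER, also fell in untreated swimmers (-0.40 ± 0.06, adjusted p = 0.0198), with -0.04 ± 0.06 under AOM/DSS.

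Sdf2l1, a partner of BiP, was at 50.4, 40.6 and 41.3 CPM in Ctrl and 23.7, 25.9 and 23.4 CPM in Ctrl_Swim mice, the largest fall of those named (-0.86 ± 0.10, adjusted p = 0.0175). Here Model_Swim mice, at 33.6, 31.7 and 28.6 CPM, also lay below Model mice, at 39.9, 35.4 and 38.5 CPM. Manf, a secreted protein induced by ER stress, and Calr, the lectin chaperone calreticulin, fell in untreated swimmers too, by 0.61 and 0.48 on the log2 scale (adjusted p = 0.0175 and 0.0266). P4hb, a disulfide isomerase, had -0.37 ± 0.08 (adjusted p = 0.0593). The acinar pancreas is itself rich in ER proteins, and whether its RNA moved this list was not tested. With Model 1 and Model 3 left out, so that Model 2 stood alone, the list's median was 0.01 under AOM/DSS. On log2(FPKM + 1) the list had 8 positive genes at an unadjusted p under 0.05 and a median interaction of 0.12. Without Ctrl 1, Model 2 or Model_Swim 2 in turn it had 10 such genes.

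Many ER chaperone genes are known to carry the ER stress response element (ERSE) near their start site, and the sequence was looked for in RefSeq promoters of GRCm38.p6 (250 bases before to 50 after the start). The letters searched on both strands were CCAAT, then any 9 bases, then CCACG, so that each match contains a CCAAT box. They stood in 7 of the 24 genes of the list with a promoter in the table (29.2%) and in 37 of 27025 promoters in all (0.137%). Among the 11771 tested genes with a promoter there the share was 0.153%. The 7 were Calr, Canx, Creld2, Dnajc3, Hsp90b1, Hspa5 and Pdia6, and all had a positive interaction, from 0.16 (Hsp90b1) to 0.53 (Hspa5), with swimming effects between -0.16 and -0.69 in untreated mice. The 3 with the lowest interaction p are printed with the element in capitals, Hspa5 at chr2:34771840-34772139, Pdia6 at chr12:17266339-17266638 and Creld2 at chr15:88819396-88819695, all on the forward strand.
Hspa5: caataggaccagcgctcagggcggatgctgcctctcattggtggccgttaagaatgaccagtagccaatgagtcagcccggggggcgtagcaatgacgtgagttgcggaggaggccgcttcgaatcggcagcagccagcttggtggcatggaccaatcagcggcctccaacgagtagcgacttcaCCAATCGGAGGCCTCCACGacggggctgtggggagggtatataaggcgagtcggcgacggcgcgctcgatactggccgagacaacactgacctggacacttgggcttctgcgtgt
Pdia6: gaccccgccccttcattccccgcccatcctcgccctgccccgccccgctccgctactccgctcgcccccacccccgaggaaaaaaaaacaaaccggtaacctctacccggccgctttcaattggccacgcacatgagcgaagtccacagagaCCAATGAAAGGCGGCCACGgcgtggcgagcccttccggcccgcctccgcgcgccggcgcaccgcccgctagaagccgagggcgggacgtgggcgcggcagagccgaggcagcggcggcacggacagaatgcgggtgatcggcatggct
Creld2: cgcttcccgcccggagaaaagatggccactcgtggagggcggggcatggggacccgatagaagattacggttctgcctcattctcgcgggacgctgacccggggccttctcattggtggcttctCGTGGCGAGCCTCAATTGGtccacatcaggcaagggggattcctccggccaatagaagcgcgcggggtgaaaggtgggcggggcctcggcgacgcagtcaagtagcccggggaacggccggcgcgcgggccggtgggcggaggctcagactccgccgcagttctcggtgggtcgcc
Counted from the start site, the element begins at position -65 in Hspa5, -98 in Pdia6 and -126 in Creld2, where it reads on the opposite strand. A match of these letters is a description of the sequence and says nothing of use in these mice.

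B cell genes had opposite signs in nearly all members. Of the 35 genes tested from the list for B cells and follicles (2 of 37 were not tested), 32 were lower in swimmers under AOM/DSS and higher in untreated swimmers, 1 the reverse, against 28.7% and 26.8% of all genes. The median interaction was -1.69, with 29 negative genes at an unadjusted p under 0.05 (9.45% of all genes tested) and 1 positive. None passed an adjusted p of 0.05 in edgeR, the lowest being 0.115, while 20 negative genes did with DESeq2, 5 with voom and 7 in edgeR without Ctrl_Swim 2. Over all genes tested, the negative ones numbered 350 of 15484 with DESeq2, 183 of 15484 with voom and 104 of 15716 without Ctrl_Swim 2. The median swimming effect was -1.03 under AOM/DSS, where 25 genes were lower at an unadjusted p under 0.05 (6.91%), and 0.67 in untreated mice, where 10 were higher (8.14%). In 9 of the 35 both arms had an unadjusted p under 0.05 with opposite signs, against 1.86% of all genes tested.

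The mean log2 CPM of the B cell list was 3.29, 3.16 and 3.55 in Model and 2.44, 2.53 and 2.21 in Model_Swim mice, without overlap. In untreated mice it was 2.33, 1.63 and 2.10 in Ctrl and 2.01, 2.27 and 3.32 in Ctrl_Swim mice. Of the untreated swimmers, Ctrl_Swim 4 alone lay above the Ctrl mice. Without Ctrl_Swim 4 the median effect in untreated mice was 0.14 in place of 0.67, the median interaction was -1.19, and 23 genes were negative at an unadjusted p under 0.05. The median under AOM/DSS without Ctrl_Swim 4 was -1.04.

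Among untreated mice, Ctrl_Swim 4 was also highest in genes of other tissues. Its mean log2 CPM was 4.95 for squamous epithelium genes and 4.50 for skeletal muscle genes. The values were 2.34 and 2.83 in Ctrl_Swim 2 and -0.21 and -0.39 in Ctrl_Swim 3. High values were not confined to Ctrl_Swim 4. In AOM/DSS mice squamous means ran from 0.24 (Model 3) to 5.82 (Model 2). Their skeletal muscle means ran from -0.54 (Model 3) to 4.22 (Model 2). The 28 squamous genes summed to 1485 CPM in Ctrl_Swim 4, 494 in Ctrl_Swim 2 and 260 in Ctrl_Swim 3, and to between 603 and 800 CPM in Ctrl mice. With the squamous list as a covariate the B cell median was -1.56 for the interaction and 0.53 in untreated mice, and 27 genes were negative at an unadjusted p under 0.05. The untreated median was 0.44 with the skeletal muscle list as a covariate, 0.33 with the library division term and 0.20 with a replicate block. The interaction medians in these fits were -1.51, -1.88 and -1.14. Of these fits, the replicate block takes Ctrl_Swim 4 out of the contrasts. The library division term leaves Ctrl_Swim 3 as the only swimmer behind the untreated effect. Without Ctrl_Swim 2 the untreated median was 0.93.

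Bank1, a scaffold of B cell receptor signalling, was at 11.95, 10.8 and 13.4 CPM in Model and 4.68, 5.33 and 3.76 CPM in Model_Swim mice. In Ctrl mice it was at 4.80, 2.94 and 3.46 CPM, and in Ctrl_Swim mice at 4.16, 5.43 and 13.1 CPM. Swimmers lay wholly below sedentary mice under AOM/DSS, and of the untreated swimmers 1 reached the level of the Model mice. The interaction was -2.41 ± 0.52 (adjusted p = 0.115), the value under AOM/DSS -1.39 ± 0.37 (adjusted p = 0.176) and that in untreated mice 1.02 ± 0.37 (adjusted p = 0.206).

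Tnfrsf13c, the receptor for the B cell survival factor BAFF, was at 7.398, 6.59 and 7.92 CPM in Model, 4.07, 3.54 and 2.44 in Model_Swim, 2.26, 1.25 and 2.14 in Ctrl, and 2.63, 2.61 and 5.52 in Ctrl_Swim mice. Neither arm overlapped, although in untreated mice the gap between Ctrl 1 and the nearest swimmers was small beside the distance to Ctrl_Swim 4. Ltb, a lymphotoxin needed for follicles to form, was also without overlap in both arms, with an interaction of -1.69 ± 0.42 (adjusted p = 0.115). These were the only 2 of the list's 35 tested genes with that arrangement, against 1.25% of all genes tested.

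Cd79a, a signalling chain of the B cell receptor, was at 33.7, 37.2 and 37.8 CPM in Model and 19.3, 17.02 and 13.9 CPM in Model_Swim mice, against 21.3, 13.1 and 15.4 CPM in Ctrl and 14.3, 17.02 and 30.7 CPM in Ctrl_Swim mice. Model mice stood apart from Model_Swim and Ctrl mice alike. Cd72, a B cell co-receptor, and Pou2af1, a coactivator of immunoglobulin transcription, had interactions of -1.63 ± 0.39 and -0.68 ± 0.29. The median effect of AOM/DSS on B cell genes was 1.45 among sedentary mice and -0.29 among swimming mice. The negative value came with the high level of Ctrl_Swim 4. The list's mean log2 CPM was 3.32 there, against 2.01 and 2.27 in Ctrl_Swim 2 and Ctrl_Swim 3 and 2.44, 2.53 and 2.21 in Model_Swim mice.

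T cell genes had a similar arrangement. Of 30 genes tested, 28 were lower in swimmers under AOM/DSS and higher in untreated swimmers (28.7% of all genes), the median interaction was -1.15, and 16 were negative at an unadjusted p under 0.05 (9.45% of all genes tested) with 0 positive. The mean log2 CPM was 2.62, 2.47 and 2.85 in Model, 1.995, 2.13 and 2.38 in Model_Swim, 1.49, 1.44 and 1.28 in Ctrl, and 1.48, 1.57 and 2.69 in Ctrl_Swim mice. As with the B cell list, Ctrl_Swim 4 was at the level of the Model mice, and without it 7 genes were negative at that threshold and the median in untreated mice was 0.19 in place of 0.69. The median interaction was -0.62 without Ctrl_Swim 4 and -0.59 with a replicate block, which also takes Ctrl_Swim 4 out of the contrasts. The count of negative genes at that threshold was 6 with the replicate block, 8 with the acinar covariate or without Model_Swim 1, and 10 without Model 3. It was 23 without Ctrl_Swim 2 and 21 without Ctrl_Swim 3 or with the library division term. With Model 1 and Model 3 both left out the median interaction was -0.87.

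Tbx21, the factor that directs type 1 helper T cells, was the T cell gene without overlap in either arm, at 1.72, 1.63 and 1.84 CPM in Model, 0.881, 0.925 and 1.01 in Model_Swim, 0.662, 0.763 and 0.660 in Ctrl, and 0.931, 1.28 and 1.53 in Ctrl_Swim mice. Genes with this arrangement made up 1.25% of all genes tested. For Tbx21 all 3 untreated swimmers, not Ctrl_Swim 4 alone, were above the Ctrl mice. Its interaction was -1.72 ± 0.40 (adjusted p = 0.115). Cd247, whose span overlaps Pou2f1, encodes the zeta chain of the T cell receptor complex and had an interaction of -2.28 ± 0.58. Ctla4 and Cd5, which restrain T cell activation, had interactions of -1.63 ± 0.53 and -1.98 ± 0.65. Thy1, an abundant member that other cells of the gut wall also express, had a smaller value of -0.49 ± 0.19, which was -0.32 without Ctrl_Swim 4.

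**Figure D4:**
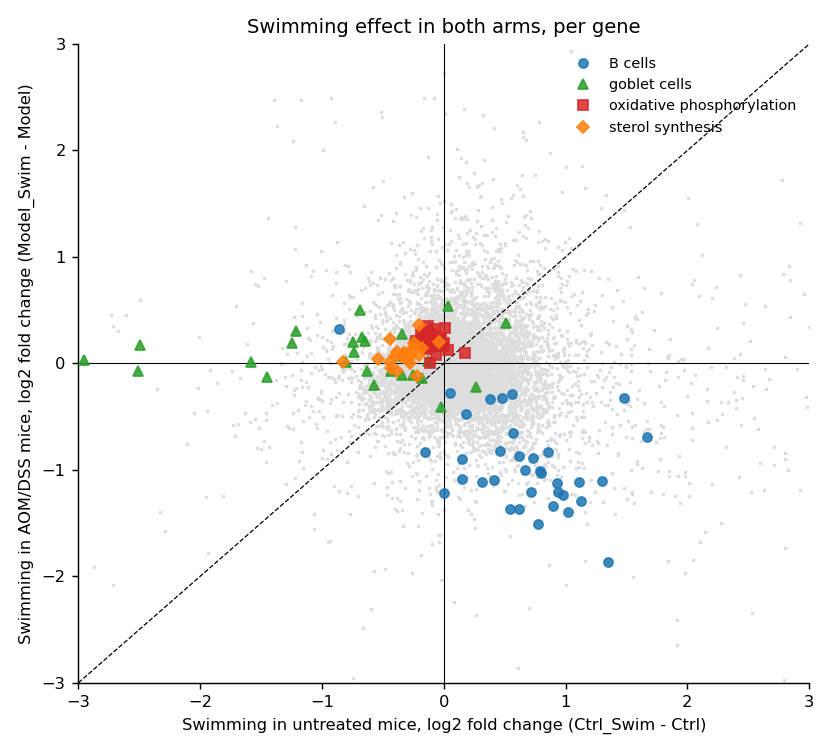
Swimming effect on each gene in untreated mice (horizontal axis, log2 fold change of Ctrl_Swim against Ctrl) and in AOM/DSS mice (vertical axis, log2 fold change of Model_Swim against Model), with 4 lists marked and all tested genes in grey, of which 298 lie outside the axes. B cell genes fill the lower right quadrant, goblet cell genes spread to the left along the horizontal axis, and genes of oxidative phosphorylation and sterol synthesis lie in the upper left quadrant near the centre.

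Genes of oxidative phosphorylation, which encode the respiratory chain and ATP synthase, had positive interactions in nearly all members. Of 40 genes, 39 were positive, 32 of them at an unadjusted p under 0.05 (9.58% of all genes tested), and the median was 0.32. Swimming effects were of opposite sign in 36 of 40, all higher under AOM/DSS and lower in untreated mice (26.8% of all genes). The effects were small, with medians of 0.22 under AOM/DSS and -0.11 in untreated mice. At an unadjusted p under 0.05, 32 were higher in swimmers under AOM/DSS (6.66%) and 5 were lower in untreated swimmers (9.49%), the latter a share of the list near that of all genes.

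The list's mean log2 CPM was 7.26, 7.23 and 7.397 in Model and 7.48, 7.54 and 7.52 in Model_Swim mice, without overlap, and 7.87, 7.91 and 7.90 in Ctrl and 7.94, 7.73 and 7.73 in Ctrl_Swim mice, with overlap through Ctrl_Swim 2. Both AOM/DSS groups stayed below all untreated mice. In limma on log2(FPKM + 1), which differs from the counts in unit, filter and test together and in which the median interaction of all genes was -0.09, the median of the list was 0.18 for the interaction, 0.20 under AOM/DSS and 0.01 in untreated mice, and 15 genes were positive at an unadjusted p under 0.05. The count was 18 without Ctrl_Swim 3, 20 without Ctrl_Swim 4 or Model 2, and 21 without Ctrl 2 or Model_Swim 3.

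Cox5b, a subunit of cytochrome c oxidase, was at 180, 197 and 223 CPM in Model and 249, 252 and 263 CPM in Model_Swim mice, against 323, 328 and 334 CPM in Ctrl and 327, 286 and 287 CPM in Ctrl_Swim mice. Its interaction was 0.48 ± 0.12 (adjusted p = 0.115). Cox5a, of the same complex, had 0.42 ± 0.11, Ndufa1 of complex I had 0.42 ± 0.11, and Atp5g1 of the ATP synthase had 0.44 ± 0.11.

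Atp5b and Atp5a1, which encode subunits of ATP synthase, were the most abundant members. Atp5b was at 1469, 1391 and 1567 CPM in Model, 1697, 1722 and 1746 in Model_Swim, 2193, 2224 and 2210 in Ctrl, and 2152, 1895 and 1881 in Ctrl_Swim mice. It did not overlap in either arm and had an interaction of 0.38 ± 0.10 (adjusted p = 0.121). For Atp5a1 the interaction was 0.38 ± 0.11, with Ctrl_Swim 2 inside the range of the Ctrl mice.

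Mature colonocyte genes had a median interaction of 0.49 over 29 genes (1 of 30 was not tested), of which 12 were positive and 1 negative at an unadjusted p under 0.05 (9.58% and 9.45% of all genes tested). Signs were opposite in 15 of 29, near the 55.5% of all genes. The median swimming effect was 0.33 under AOM/DSS and -0.17 in untreated mice. The list's mean was 7.34, 7.69 and 7.65 in Model and 8.10, 8.04 and 7.98 in Model_Swim mice, without overlap, against 8.04, 8.08 and 8.201 in Ctrl and 8.11, 7.98 and 7.69 in Ctrl_Swim mice, with overlap. Model_Swim mice lay within the range of the untreated mice.

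Guca2b, the hormone uroguanylin, was at 11.04, 11.99 and 13.8 CPM in Model, 16.7, 18.6 and 17.1 in Model_Swim, 21.8, 24.4 and 23.5 in Ctrl, and 22.2, 19.5 and 17.8 in Ctrl_Swim mice. Its interaction was 0.74 ± 0.16 (adjusted p = 0.115). Vil1, an actin-bundling protein of the brush border, did not overlap in either arm, with an interaction of 0.51 ± 0.13. Cdhr5, a cadherin that links microvilli, had 0.71 ± 0.20.

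Car1, a carbonic anhydrase and the most abundant gene of the list beside Lypd8, was at 410.4, 277 and 4731 CPM in Model mice and 6034, 6287 and 5932 CPM in Model_Swim mice. Its interaction of 1.63 ± 1.12 (adjusted p = 0.46) had the widest error of the list's named genes, since Model 3 lay near the swimmers and Model 1 and Model 2 far below. Without Model 3 it was 4.01. The proximal position genes also set Model 1 and Model 2, at 2.07 and 2.46, below Model 3, at 3.598, and below the Model_Swim mice, at 3.12 to 3.30. With the distal position genes as a covariate the Car1 interaction was 3.11 and the colonocyte median 0.55.

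Genes of sterol synthesis make up the pathway to cholesterol. All 22 had a positive interaction, with a median of 0.41 and 14 at an unadjusted p under 0.05 (9.58% of all genes tested). In untreated mice all 22 were lower in swimmers, 16 at an unadjusted p under 0.05 (9.49%) and 1 at an adjusted p of 0.05, with a median of -0.33. Under AOM/DSS the median was 0.07, and no gene reached an unadjusted p of 0.05 in either direction. On log2(FPKM + 1) the median was 0.25 and 2 genes were positive at an unadjusted p under 0.05. On counts, the median was 0.26 without Ctrl 3, and the number was 6 without Ctrl 3, 8 without Model_Swim 2, and 9 without Ctrl_Swim 3 or Model 1.

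The gene past the adjusted threshold was Fdps, which makes farnesyl diphosphate. It was at 142, 139 and 170 CPM in Ctrl, 96.5, 99.4 and 116 in Ctrl_Swim, 125, 113 and 115 in Model, and 114, 129 and 121 in Model_Swim mice. The fall in untreated swimmers was -0.54 ± 0.10 (adjusted p = 0.0343), and the AOM/DSS groups overlapped. Sqle, the squalene epoxidase, had an interaction of 0.46 ± 0.13, Nsdhl of 0.42 ± 0.13, and Hmgcs1, an early enzyme of the pathway and its most abundant, of 0.42 ± 0.19, which was 0.27 without Ctrl 3.

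Sc5d, a late enzyme, had 0.28 ± 0.08 and did not overlap in either arm. Srebf2, the factor that drives the pathway, was at 320, 300 and 334 CPM in Ctrl and 272, 260 and 253 CPM in Ctrl_Swim mice and between 299 and 323 CPM in all 6 AOM/DSS mice. Its interaction was 0.28 ± 0.09 (adjusted p = 0.148).

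Clock genes, which keep daily time through feedback on their own transcription, had swimming effects of the same sign in both arms in 16 of 21 genes. Between swimming and sedentary mice 7 of 21 genes differed at an adjusted p under 0.05 under AOM/DSS (0.071% of all genes) and 5 in untreated mice (0.969%). The 7 are among 11 genes past both cutoffs under AOM/DSS, of which none was left with the library division term, which cannot be told apart from swimming there. At an unadjusted p under 0.05, 6 interactions were positive and 2 negative (9.58% and 9.45% of all genes tested), the negative ones being near the share of all genes. The hour of tissue collection for each group is not given in the sources used here.

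Tef, an activator of clock output, was at 32.7, 38.1 and 43.2 CPM in Model, 117, 122 and 103 in Model_Swim, 116, 103 and 105 in Ctrl, and 183, 162 and 138 in Ctrl_Swim mice. Swimmers were the higher ones in both arms, with 1.58 ± 0.12 under AOM/DSS (adjusted p = 0.000895) and 0.57 ± 0.12 in untreated mice (adjusted p = 0.0553), and the interaction was 1.01 ± 0.17 (adjusted p = 0.0894). Ciart, a clock repressor, had 8.64, 11.4 and 8.27 CPM in Model_Swim against 0.590, 0.926 and 2.18 CPM in Model mice, and an interaction of 1.89 ± 0.47. Nr1d2, the paralogue of Nr1d1, had 0.69 ± 0.15, and Bhlhe40, another repressor, 0.55 ± 0.25.

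The E-box CACGTG, through which the clock activators bind, stood in 5 of the 17 clock promoters in the RefSeq table (29.4%) against 8.09% of all 27025. Among the 11771 tested genes with a promoter there the share was 10.8%. The 5 clock genes with an E-box differed in sign, with interactions of 1.89 for Ciart, 1.01 for Tef, 0.63 for Per1, -0.26 for Bhlhe41 and -0.74 for Cry1. Ciart, the largest, is shown, with 3 E-boxes, at chr3:95882179-95882478 on the reverse strand, and the E-boxes are in capitals.
Ciart: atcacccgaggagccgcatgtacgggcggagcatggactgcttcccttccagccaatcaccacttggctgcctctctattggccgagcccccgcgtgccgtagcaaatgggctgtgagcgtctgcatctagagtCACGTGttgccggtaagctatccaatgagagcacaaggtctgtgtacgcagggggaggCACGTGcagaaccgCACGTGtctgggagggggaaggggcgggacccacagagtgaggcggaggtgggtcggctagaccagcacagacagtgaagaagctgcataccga

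**Figure D5:**
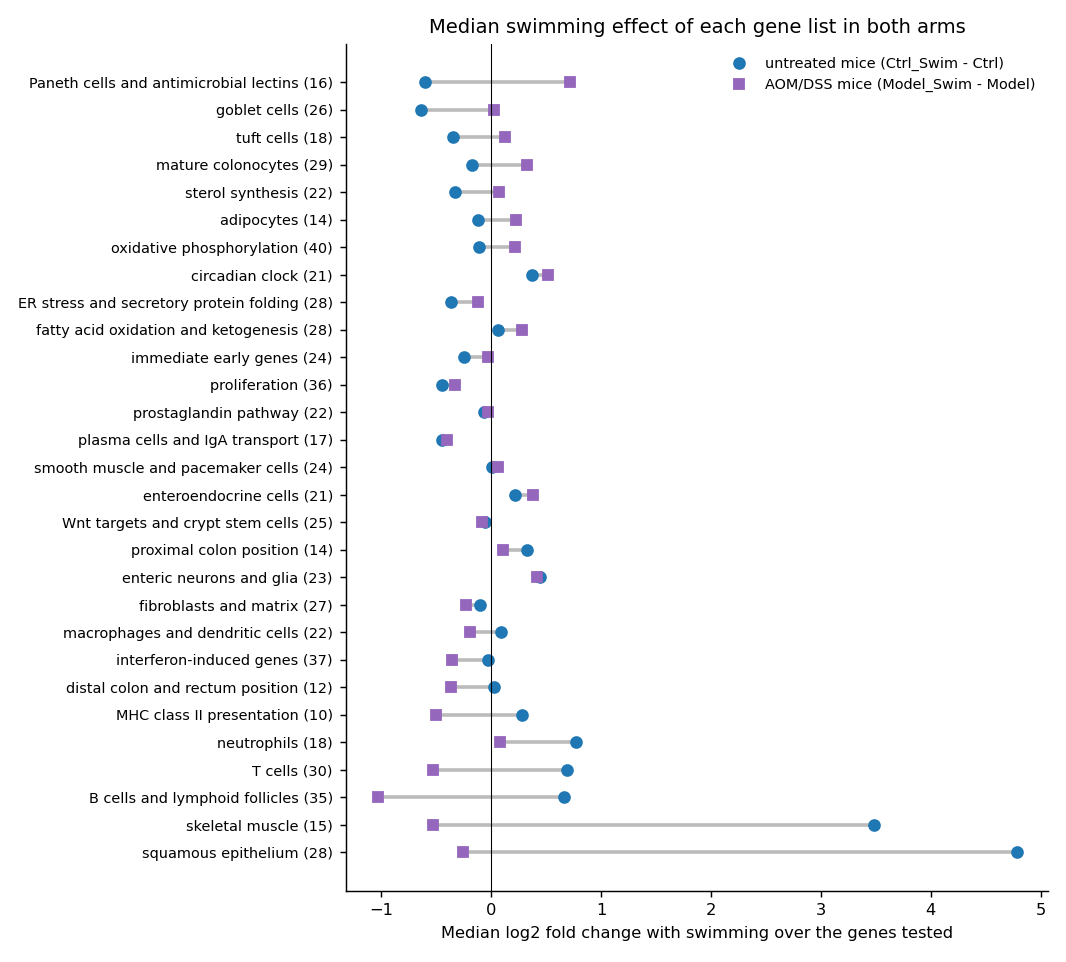
Median log2 fold change with swimming over the tested genes of each list (number tested in parentheses) in untreated mice (circles) and AOM/DSS mice (squares), ordered by the median interaction. The marks lie on opposite sides of 0 for B cells, T cells, mature colonocytes and oxidative phosphorylation, and on the same side for the circadian clock and for ER stress and secretory protein folding. The pancreatic lists are not drawn.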

How the data were processed

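RNA from whole colorectal tissue of 12 mice was sequenced as stranded mRNA libraries. The authors trimmed the reads, used HISAT2 for alignment to GRCm38.p6, and deposited raw counts per gene from HTSeq-count, together with FPKM values from Cufflinks. The strand setting of the counting is not given in the sources used here. Counts were scaled by TMM, and filterByExpr (min.count = 10) removed genes of low count. One edgeR (4.0.16, R 4.3.3) quasi-likelihood model held the 4 groups, and p-values were adjusted by Benjamini-Hochberg over all 15484 genes tested. They measure only the spread between these mice. Levels are CPM after TMM scaling. Named genes were the 12 of lowest interaction p in each direction with opposite effects and at least 1 CPM, and, per list described, up to 4 of lowest p and the 2 most abundant. Some genes that this rule names are not reported here. The members and lists were chosen with earlier results of these data known. Alternatives were DESeq2 1.42.0, voom with sample weights (limma 3.58.1), DESeq2 size factors, no filter, covariates for acinar, squamous, distal position and, added after seeing the data, skeletal muscle genes, a term for the library division, a replicate block, the deposited FPKM as log2(FPKM + 1) or log2(FPKM + 0.1) in limma with a minimum of 0.5 FPKM, and leaving out each mouse. No 2 libraries of the same group were duplicates, and pairs across groups were not checked for this. Promoter sequences came from RefSeq (GRCm38.p6).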

Additional observations from a re-analysis of the deposited data

How the results depend on the processing

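With 3 mice per group, calls depended on the model and on single mice, and the cause was not tested. The interaction at both cutoffs (0 genes, 2947 at an unadjusted p under 0.05) gave 209 with DESeq2, 120 with voom, 2 with the acinar covariate, 53 with the distal position covariate and 249 without both pancreatic libraries, and 0 to 248 with 1 mouse left out. By adjusted p alone the numbers were 750, 553, 2, 103 and 917, and 0 to 716 with 1 mouse left out. The unadjusted count was 2074 to 3738 with 1 mouse left out, and on log2(FPKM + 1) its split was 610 positive and 2102 negative (614 and 2103 on log2(FPKM + 0.1)) against 1484 and 1463.

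Swimming in AOM/DSS mice (11 genes at both cutoffs) gave 100 with DESeq2, 34 without the filter, 23 with voom, 1, 53 and 161 with the acinar, squamous and distal covariates, 0 with the library division, 214 without both pancreatic libraries and 18 on log2(FPKM + 0.1), and 6 to 327 with 1 mouse left out. Swimming in untreated mice (26 genes) gave 76 with DESeq2, 77 with voom, 17, 14 and 12 with the acinar, squamous and skeletal muscle covariates, 0 with the library division, 58 without both pancreatic libraries, 5 on log2(FPKM + 1), 9 on log2(FPKM + 0.1) and 2 on log2(FPKM + 1) without the filter, and 0 to 38 with 1 mouse left out. Genes with an unadjusted p under 0.05 and opposite signs in both arms (288) numbered 499 with voom, 106, 177 and 172 with the acinar, squamous and skeletal muscle covariates, 6 with the library division and 603 without both pancreatic libraries, and 136 to 556 with 1 mouse left out.

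The goblet median of 0.72 was 0.48 on log2(FPKM + 1) without the filter and 0.56 to 0.85 with 1 mouse left out. The B cell median of -1.69 was -1.23 on log2(FPKM + 1), -1.17 without the filter, and -2.01 to -1.19 with 1 mouse left out. Muc2 ranged from -0.13 to 0.70 with 1 mouse left out and was the only named gene whose sign turned.

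Correlations of the deviations of same-numbered mice ran from -0.26 to 0.56 over 15 pairs. They were above 0.1 in 4 pairs (Ctrl_Swim 3 with Model 3 and with Model_Swim 3, Model 3 with Model_Swim 3, and Model 2 with Model_Swim 2) and not in the other 11, so the samples were taken to share only a number. With a replicate block, 1699 genes had an unadjusted interaction p under 0.05, 22 and 1 genes changed with swimming in AOM/DSS and untreated mice, 83 had opposite signs in both arms, and the B cell median was -1.14. Since the block also takes Ctrl_Swim 4 out of the contrasts, these values are not separate from those without that mouse. Of the alternative values for single genes and for the other 6 lists, 1867 were counted as unchanged. For a gene this means the same direction and side of the threshold, and for a list a median moved by less than the spread between mice. Of the rest, 84 went past both cutoffs, all of them for 21 of the named genes, 22 list medians moved by more than that spread, and 1 gene value changed sign. Outside the genes named by rank, Spink4 and Tef passed in 6 alternatives each, Ciart in 5, and Spdef, Bank1 and Car1 in 4 each.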

Other observations

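Among the lists not described above, several had medians of the same sign in both arms, of which 3 are given here. Proliferation genes had medians of -0.33 under AOM/DSS and -0.45 without it, with 18 and 27 of 36 genes lower in swimmers at an unadjusted p under 0.05 (6.91% and 9.49% of all genes tested). Plasma cell and IgA transport genes, unlike the B cell list, had medians of -0.40 and -0.44, with 9 and 11 of 17 genes lower (6.91% and 9.49%). Genes of enteric neurons and glia had medians of 0.42 and 0.45, with 7 and 10 of 23 genes higher (6.66% and 8.14%).

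Paneth cell and antimicrobial lectin genes had medians of 0.72 under AOM/DSS and -0.60 without it, and 3 of 16 interactions were positive and 1 negative at an unadjusted p under 0.05 (9.58% and 9.45% of all genes tested). Without Ctrl 2 the median in untreated mice was 0.26 and the median interaction 0.35 in place of 1.37. Neutrophil genes had a median interaction of -0.83 with 0 of 18 at that threshold, and its direction was not stable. It was 0.13 with the squamous covariate, -0.06 without Ctrl_Swim 4, -0.25 without Model 1, -0.13 with the replicate block, -0.19 with the skeletal muscle covariate and -0.34 with voom. The replicate block also takes Ctrl_Swim 4 out of the contrasts.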
